A study of Mus musculus with 32 samples.

Results

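The enzymes of glycolysis and of the tricarboxylic acid (TCA) cycle were followed as a list of 32 genes chosen by their place in the pathway, 18 that encode cytosolic enzymes from hexokinase to lactate dehydrogenase and 14 that encode the mitochondrial pyruvate carrier, pyruvate carboxylase, pyruvate dehydrogenase and enzymes of the cycle. All 32 were found by symbol among the 25700 genes counted in every sample and all passed the filter on low counts in each comparison. The data are RNA sequencing of 32 samples from mouse tendon assembloids, in which a tendon core explant is clamped inside a collagen hydrogel and cultured to day 7. Core explants were tail tendon fascicles from mice of the line B6.129S2-Il6tm1Kopf/J, either Il-6+/+ (WT) or Il-6-/- (KO), male and female and 12 to 15 weeks old. The hydrogel of rat tail collagen-1 was cell-free, was seeded with fibroblasts that had been cultured from WT Achilles tendons (progenitors in the labels), or was seeded with macrophages. Cores were sequenced as WT core // cell-free, WT core // fibroblasts, WT core // macrophages, KO core // cell-free and KO core // fibroblasts (n = 4 each), and the hydrogels of the fibroblast assembloids were sequenced around WT cores and around cores labelled KO (n = 6 each). All groups shared the same culture medium with serum, ascorbic acid and, per the study's methods, macrophage colony-stimulating factor. One core sample pooled 20 to 24 explants of 1 mouse, and one hydrogel sample pooled 2 hydrogels, which held seeded WT fibroblasts from 6 mice together with cells that had left the core. The knockout therefore touches only the core-derived cells, also in the hydrogels called KO hydrogels below.

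Glycolysis turns glucose into pyruvate in the cytosol, and lactate dehydrogenase can reduce that pyruvate to lactate, which carriers export. Alternatively, pyruvate enters the mitochondrion through the pyruvate carrier, where pyruvate dehydrogenase makes acetyl-CoA for the TCA cycle and pyruvate carboxylase makes oxaloacetate. Many glycolytic genes are known targets of the hypoxia-inducible factor HIF-1, which binds short DNA letters called hypoxia response elements, and tendon is a sparsely vascularized tissue.

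The windows around the transcription start of 4 cytosolic members are shown because these members stand for the patterns described below: Ldha, Eno1 and Pfkl for the enzymes that were higher beside fibroblasts, and Hk3 for the enzyme that ran the other way. They come from RefSeq on the mouse build GRCm38.p6 and hold 250 bases before and 50 bases after the start, written 5′ to 3′ on the strand of the gene. Capitals mark the letters ACGTG or GCGTG, the core of a hypoxia response element, and their reverse complements CACGT and CACGC. The palindrome CACGTG, which is also an E-box, counts as 2 matches that overlap.
Ldha, chr7:46845554-46845853, plus strand: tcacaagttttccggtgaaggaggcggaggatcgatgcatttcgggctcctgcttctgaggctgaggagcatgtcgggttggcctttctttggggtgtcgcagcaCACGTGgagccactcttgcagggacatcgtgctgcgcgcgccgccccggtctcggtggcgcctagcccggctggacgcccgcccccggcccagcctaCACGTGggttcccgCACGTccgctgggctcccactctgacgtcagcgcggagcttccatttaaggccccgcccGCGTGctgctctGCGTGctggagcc
Eno1, chr4:150236458-150236757, plus strand: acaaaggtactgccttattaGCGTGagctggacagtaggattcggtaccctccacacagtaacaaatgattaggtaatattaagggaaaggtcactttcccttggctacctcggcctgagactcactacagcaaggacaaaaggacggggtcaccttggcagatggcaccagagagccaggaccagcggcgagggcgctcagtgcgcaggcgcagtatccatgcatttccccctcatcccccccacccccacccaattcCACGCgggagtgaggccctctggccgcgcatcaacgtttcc
Pfkl, chr10:78009758-78010057, minus strand: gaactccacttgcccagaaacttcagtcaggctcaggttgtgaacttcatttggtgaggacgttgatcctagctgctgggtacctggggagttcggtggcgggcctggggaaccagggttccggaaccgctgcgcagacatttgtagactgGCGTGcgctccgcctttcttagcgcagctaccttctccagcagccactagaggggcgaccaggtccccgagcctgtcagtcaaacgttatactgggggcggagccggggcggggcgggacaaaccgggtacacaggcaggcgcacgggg
Hk3, chr13:55021336-55021635, minus strand: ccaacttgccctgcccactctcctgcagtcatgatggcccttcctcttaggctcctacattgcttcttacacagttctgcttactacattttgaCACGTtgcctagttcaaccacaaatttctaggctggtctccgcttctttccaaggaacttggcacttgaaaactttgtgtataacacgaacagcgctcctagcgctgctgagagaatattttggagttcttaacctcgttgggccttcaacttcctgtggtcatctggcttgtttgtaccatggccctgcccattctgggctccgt

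These windows held 7, 2, 1 and 1 matches in that order. For each gene only the first window listed was counted, and another window of Ldha held 2 matches. Of the 31 members with a window in the RefSeq table, 23 (74.2%) held at least 1 match, against 43.8% of 27025 genes with a window of the same length. The share was 12 of 18 among cytosolic members (66.7%) and 11 of 13 among mitochondrial members (84.6%). The first windows of the cytosolic members Hk1, Pkm and Aldoa held no match, while other windows of these genes did. The shares therefore depend on the window taken. In these first windows the letters were no less common before the mitochondrial genes than before the glycolytic genes. Base composition was not matched, and a match is not a binding site.

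The deposited values are estimated counts per gene, given below as CPM, which are counts per 1 M counts of a library after scaling by TMM over all samples. Libraries held 20.4 to 59.9 M counts. Log2 fold changes are from edgeR's quasi-likelihood fit and are followed by their standard error, members were called at a Benjamini-Hochberg adjusted p under 0.05 over all genes tested, and mean levels are given ± SD. Il6, the targeted gene, was counted in all samples and did not follow the labels, with 1.90 to 11.7 CPM in WT core // cell-free, 4.96 to 11.8 CPM in WT core // fibroblasts, 6.51 to 20.5 CPM in KO core // cell-free and 10.5 to 37.1 CPM in KO core // fibroblasts. Counts per gene do not show which part of a gene is deleted, so the libraries are called labelled KO. Tendon fibroblast markers were high in all groups, with the sum of 10 markers between 19359.6 and 64032 CPM per sample. The sum of 12 macrophage markers was 9900.4 to 13849 CPM in WT core // cell-free, 9022 to 9632 CPM in WT core // fibroblasts and 5235 to 12017 CPM in WT core // macrophages, so that macrophage transcripts were already plentiful in cores without added macrophages. In hydrogels it was 9777 to 18396 CPM around WT cores and 2153 to 31717 CPM around cores labelled KO, where replicate 5 was the lowest. The sums of other marker lists were low, with at most 61.0 CPM in a sample for 8 markers of skeletal muscle, at most 36.1 CPM for 5 of endothelium and at most 8.92 CPM for 5 of fat cells, the highest muscle and fat sums being in KO core // cell-free. Ckm and Mb of muscle, Tie1 and Emcn of endothelium and Plin1, Cidec and Lep of fat were under 1 CPM in every sample. Of these lists edgeR called Kdr lower in WT cores beside fibroblasts than in cell-free cores, Kdr and Pecam1 (1 in each direction) beside macrophages, Myh4 higher beside macrophages than in cell-free cores, and between compartments Kdr higher and Myh1, Myh2 and Tnnt3 lower in WT hydrogels and Myh2 and Tnnt3 lower in KO hydrogels. Their part in the results below was not tested. In such bulk samples, fewer cells of a type and less RNA per cell cannot be told apart.

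Per kilobase of exon, the most abundant member in all 7 groups was Pkm, pyruvate kinase of the muscle type, which makes pyruvate in the last step of glycolysis. It stood at 543 ± 32.4 CPM per kb in WT core // cell-free and at 980.1 ± 156 CPM per kb in WT hydrogels. Aldoa, the aldolase that splits fructose 1,6-bisphosphate, came second in every group. Next was Gapdh in both cell-free groups and beside macrophages, and Ldha beside fibroblasts and in hydrogels. Ldhb, the heart-type lactate dehydrogenase subunit, was the least abundant member per kb in the 4 groups of cores without macrophages (3.55 ± 0.725 CPM per kb in WT core // cell-free).

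Along the pathway, the group means of most members were lowest in WT core // macrophages and highest in KO hydrogels, and other groups are named where this was not so. Among hexokinases, which phosphorylate glucose, Hk1 ran from 80.2 to 167 CPM, Hk2 from 28.00 to 77.7 CPM and Hk3, the isoform of myeloid cells, from 44.05 to 193 (WT hydrogels) CPM. Glucose-6-phosphate isomerase, Gpi1, ran from 162 to 369 CPM. Among the phosphofructokinases, the committing step, Pfkl ran from 52.2 to 222 CPM, Pfkm from 25.7 (WT core // cell-free) to 38.3 (WT hydrogels) CPM and Pfkp from 61.3 to 128 (KO core // fibroblasts) CPM. The spread between groups was thus wide for Pfkl and narrow for Pfkm, the muscle-type subunit. The aldolases Aldoa and Aldoc ran from 466 to 1698 CPM and from 7.47 to 48.1 CPM. Triose phosphate isomerase, Tpi1, ran from 118 to 559.8 CPM, Gapdh, which oxidizes glyceraldehyde 3-phosphate, from 168 to 609 CPM, and the ATP-yielding kinase Pgk1 from 29.5 to 270.1 CPM. The mutase Pgam1 ran from 18.6 to 108 CPM, the enolase Eno1 from 106 to 560.4 CPM and Pkm from 952 to 2864 CPM. Eno2, the neuronal enolase, had the opposite order, from 11.2 (WT hydrogels) to 21.8 (WT core // macrophages) CPM. The lactate dehydrogenases Ldha and Ldhb ran from 192 to 1097 CPM and from 4.63 (WT core // cell-free) to 23.6 (WT hydrogels) CPM.

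Mitochondrial members covered a narrower range. The pyruvate carrier subunits Mpc1 and Mpc2 ran from 16.9 (KO core // fibroblasts) to 23.5 CPM and from 17.1 (WT core // cell-free) to 29.9 CPM. Pcx, pyruvate carboxylase, ran from 66.6 (WT core // cell-free) to 122 (WT core // fibroblasts) CPM and was the only mitochondrial member whose highest mean was in a core group. The pyruvate dehydrogenase subunits Pdha1, Pdhb and Dlat ran from 112 to 198 CPM, from 30.7 (WT core // cell-free) to 38.5 CPM and from 36.2 to 68.2 CPM. In the cycle itself, citrate synthase Cs ran from 97.5 to 192 CPM, the isocitrate dehydrogenases Idh2 and Idh3a from 63.1 (WT core // cell-free) to 89.3 (WT hydrogels) CPM and from 24.7 to 51.5 (WT hydrogels) CPM, and oxoglutarate dehydrogenase Ogdh from 154 to 251 (WT hydrogels) CPM. Succinyl-CoA ligase Suclg1 ran from 27.6 to 50.9 CPM, succinate dehydrogenase Sdha from 134 to 209 (WT hydrogels) CPM, fumarase Fh1 from 29.3 to 55.05 CPM and malate dehydrogenase Mdh2 from 49.5 to 113 CPM. The highest group mean was 1.26 to 2.28 times the lowest among the 14 mitochondrial members (median 1.80) and 1.49 to 9.16 times among the 18 cytosolic members (median 3.94).

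The balance between isoforms, as a ratio of CPM per kb within a sample (geometric mean over a group), is given without a test. Ldha exceeded Ldhb 37.9-fold in WT core // cell-free, 56.9-fold in WT core // fibroblasts, 23.05-fold in WT core // macrophages, 35.3-fold in KO core // cell-free and 76.3-fold in KO core // fibroblasts. In hydrogels, where both transcripts were higher than in cores, it was 24.8-fold (WT) and 35.5-fold (KO). The ratio of Pfkp to Pfkl was 1.59 in WT core // cell-free and 1.62 in KO core // cell-free, and 0.720 and 0.652 beside fibroblasts, so that Pfkl, the liver-type subunit, had the higher level in cores beside fibroblasts. The ratio of Hk3 to Hk1 was 2.28 in WT core // cell-free, 1.34 in WT core // fibroblasts and 0.787 in WT core // macrophages.

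**Figure D1:**
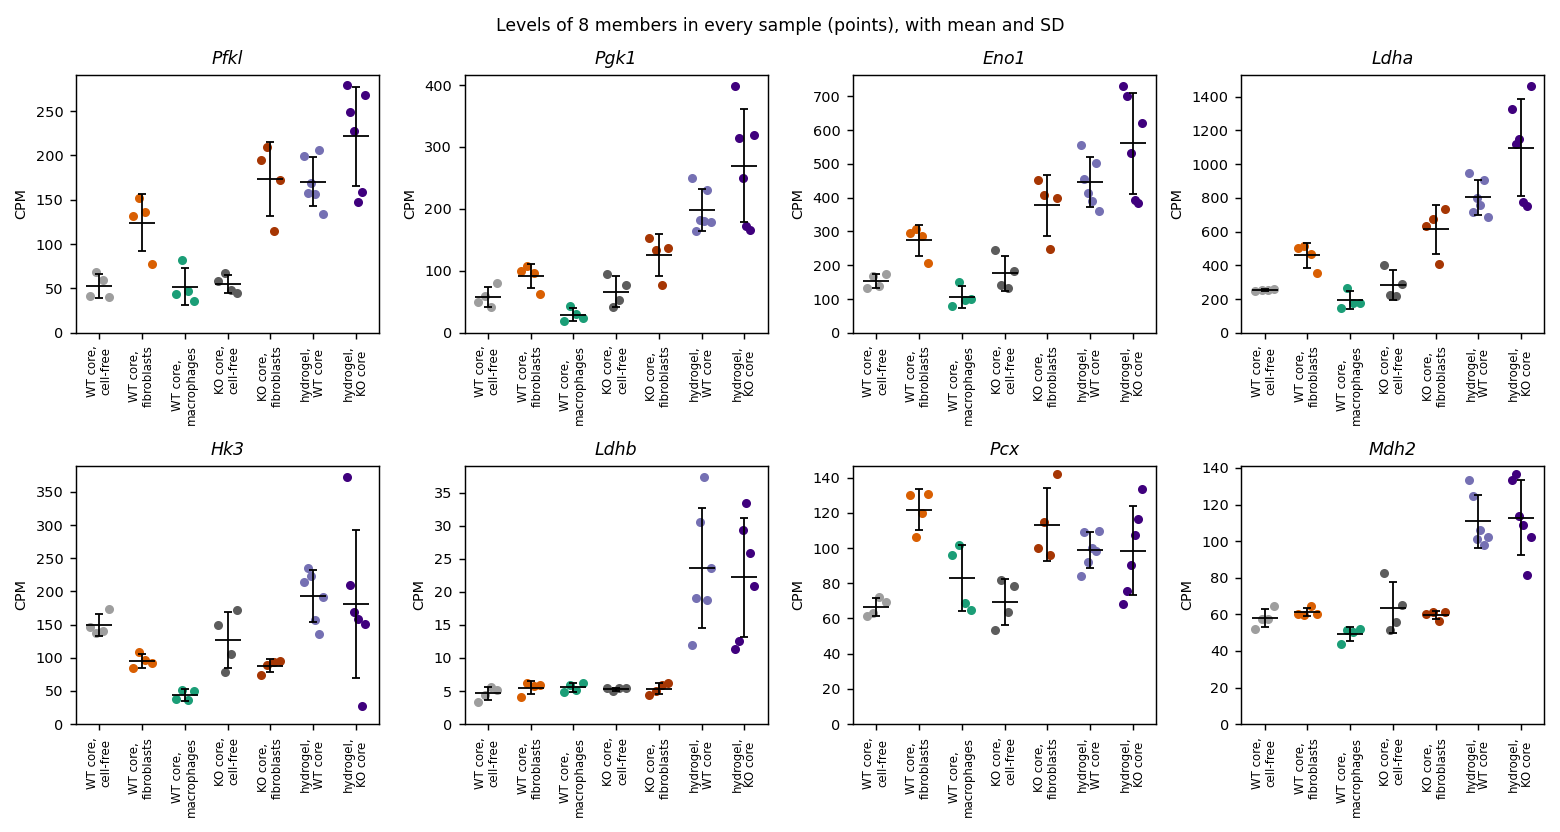
CPM (linear axis) of 8 members in each sample of the 7 groups, with points for samples and bars for mean ± SD. Ldha in the 4 WT core // cell-free samples sits between 247 and 262 CPM, below all WT core // fibroblasts samples, while Ldhb is high only in the hydrogel groups.

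Whether fibroblasts in the hydrogel change the core was asked by comparing WT core // fibroblasts with WT core // cell-free. The glycolytic transcripts Ldha, Eno1, Pfkl, Tpi1, Pfkm and Gapdh were higher beside fibroblasts, while Hk3 was lower. Of the 18 cytosolic members, 6 rose and 1 fell, and of the 14 mitochondrial members only Pcx rose. Over all 16188 genes tested, 2.46% were called higher and 1.83% lower. The median log2 fold change was 0.40 for cytosolic members and 0.11 for mitochondrial members, against −0.02 for all genes.

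Ldha, which makes lactate, was at 247, 253, 254 and 262 CPM in the 4 WT core // cell-free samples. Beside fibroblasts it was at 503, 517, 468 and 352 CPM. The groups did not overlap (log2 fold change 0.87 ± 0.11, edgeR adjusted p = 0.0110). Exact permutation tests (two-sided) gave p = 0.0286 for Ldha and for each of the other called members, the smallest value that 4 against 4 samples allow. Eno1 was at 134, 169, 140.0 and 174 CPM without and at 294, 308, 285 and 206 CPM with fibroblasts (log2 fold change 0.84 ± 0.14, edgeR adjusted p = 0.0161). Pfkl had the largest fold change of the called members, from 41.8, 68.4, 59.99 and 40.7 CPM to 132, 152, 136 and 77.97 CPM (log2 fold change 1.25 ± 0.22, edgeR adjusted p = 0.0227). In all of these the lowest sample beside fibroblasts stood above the highest cell-free sample. Tpi1 was at 137, 171, 154 and 159.8 CPM and at 269.9, 297, 266 and 188 CPM (log2 fold change 0.73 ± 0.13, edgeR adjusted p = 0.0230). Pfkm was at 24.6, 27.02, 24.7 and 26.5 CPM and at 34.01, 30.1, 32.8 and 31.7 CPM (log2 fold change 0.34 ± 0.07, edgeR adjusted p = 0.0289). Gapdh, often used as a reference gene, was also higher, with 217, 261, 239 and 269.8 CPM and 322, 349, 336 and 296 CPM (log2 fold change 0.42 ± 0.09, edgeR adjusted p = 0.0372).

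Hk3 moved the other way, from 146, 137, 139.8 and 173 CPM to 83.9, 108, 96.7 and 92.2 CPM (log2 fold change −0.63 ± 0.10, edgeR adjusted p = 0.0155). In the same comparison 3 of 12 macrophage markers (Cd68, Csf1r and Ptprc) fell, none rose, and the summed marker level went from 9900.4 to 13849 CPM to 9022 to 9632 CPM. Their part in the fall of Hk3 was not tested. Of 10 tendon fibroblast markers, Scx alone was called, higher beside fibroblasts, and its part in the rise of glycolytic transcripts was not tested either.

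Pcx, which feeds the TCA cycle with oxaloacetate, was at 61.3, 63.4, 72.2 and 69.5 CPM without and at 130.4, 106, 120.1 and 130.5 CPM with fibroblasts (log2 fold change 0.89 ± 0.08, edgeR adjusted p = 0.00274). It had the lowest p of all 32 members, and its groups did not overlap. No other mitochondrial member was called, with Pdha1 at a log2 fold change of 0.19 ± 0.07 (adjusted p = 0.159, edgeR), Cs at 0.10 ± 0.07 (0.454) and Idh2 at 0.16 ± 0.08 (0.311). Among uncalled cytosolic members, Hk2 had 0.46 ± 0.21 (adjusted p = 0.238), Pfkp 0.10 ± 0.12 (0.678) and Ldhb 0.26 ± 0.19 (0.464). Pkm and Gpi1 did not overlap between groups but missed the threshold (adjusted p = 0.0524 and 0.0668, edgeR). Without a difference, 4 against 4 samples fail to overlap with a probability of 0.0286, and the share over all genes was not counted.

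Genes around the pathway were counted as well. Of 9 glucose and lactate carriers tested, 2 rose beside fibroblasts: Slc16a3, the lactate exporter MCT4, from a mean of 28.5 to 75.7 CPM (log2 fold change 1.43 ± 0.30, edgeR adjusted p = 0.0355), and Slc16a1, the carrier MCT1, from 165 to 261 CPM (log2 fold change 0.68 ± 0.16, edgeR adjusted p = 0.0456). Of 12 kinases and phosphatases that set phosphofructokinase and pyruvate dehydrogenase activity, only Pdk1 rose, a kinase that inhibits pyruvate dehydrogenase (log2 fold change 1.03 ± 0.16, edgeR adjusted p = 0.0138). Of 13 regulators, 4 rose: Hif1a (log2 fold change 0.69 ± 0.12, edgeR adjusted p = 0.0196), which encodes the oxygen-regulated subunit of HIF-1, Vhl (0.42 ± 0.09, 0.0355), and the prolyl hydroxylases Egln1 (0.62 ± 0.14, 0.0444) and Egln3 (1.98 ± 0.48, 0.0495), which mark HIF subunits for decay. Of 9 other glycolysis enzymes, 11 other pyruvate dehydrogenase and TCA subunits and 16 genes of neighbouring metabolism, edgeR called 0, while 0, 2 and 7 had an unadjusted p under 0.05 and DESeq2 called 0, 0 and 3.

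With the totals of the libraries as scale in place of TMM, which moved the median log2 fold change of all genes to −0.12, the split of called genes turned from 398 higher and 297 lower to 233 higher and 761 lower, and the members called were 5 higher and 1 lower. Ldha and Pcx kept their call with any 1 of the 8 libraries left out. The other 6 lost theirs without fibroblast replicate 1 or 3 (adjusted p of up to 0.122), and 4 members were called without cell-free replicate 1 and 14 without cell-free replicate 4. The number of all genes called moved too. Without fibroblast replicate 1, 41 were higher and 9 lower, and without fibroblast replicate 3, 49 and 15. Without cell-free replicate 1 it was 117 and 54, and without cell-free replicate 4 it was 952 and 548. The sample titles hold 3 codes (150, 152 and 154) that the labels do not explain. Within them, the mean of the 18 cytosolic members differed beside fibroblasts by 0.59, 0.46 and −0.02 on the log2 scale. This mean over all 18, called or not, therefore did not rise within code 154, which held 1 sample of each group.

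**Figure D2:**
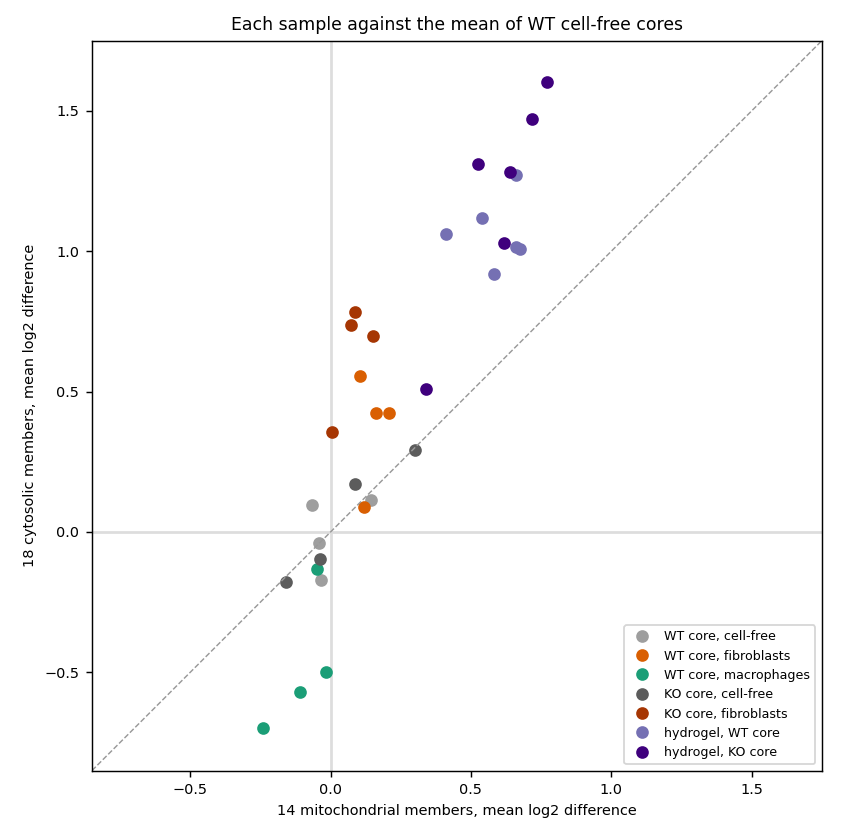
Mean log2 difference in CPM from the WT core // cell-free mean, over the 14 mitochondrial members (x axis) and over the 18 cytosolic members (y axis), 1 point per sample, with a dashed line where both are equal. KO core // fibroblasts samples lie 0.35 to 0.69 above the line, WT core // macrophages samples lie below it, and hydrogel samples are high on both axes.

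The same question was asked of cores labelled KO. In KO core // fibroblasts against KO core // cell-free, the median log2 fold change was 0.54 over the cytosolic members, −0.05 over the mitochondrial members and −0.02 over all genes. Pfkl was the only member called, where 0.301% of the 15965 genes tested were called higher and 0.132% lower. The estimates of 17 cytosolic members were positive, and Hk3 was the exception.

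Pfkl was at 58.6, 67.6, 48.2 and 45.2 CPM in KO core // cell-free and at 195, 209.7, 115 and 173 CPM in KO core // fibroblasts. The groups did not overlap (log2 fold change 1.65 ± 0.20, edgeR adjusted p = 0.0145, exact permutation p = 0.0286), and the call was lost without cell-free replicate 3 or 4 or fibroblast replicate 4 (highest adjusted p = 0.0722, edgeR). Ldha went from 404, 222, 218 and 292 CPM to 631, 675, 408 and 736 CPM (log2 fold change 1.10 ± 0.25, edgeR adjusted p = 0.0879). Eno1 went from 245, 142, 133 and 183 CPM to 453, 408, 247 and 399 CPM (log2 fold change 1.09 ± 0.24, edgeR adjusted p = 0.0829). In this comparison 7 cytosolic members, Pfkl included, and 2 mitochondrial members did not overlap between groups. Ldha, Eno1, Hk2, Tpi1, Gpi1 and Pcx were among them. The share of all genes without overlap was not counted, so that this does not set the uncalled members apart. Hk2, the inducible hexokinase, went from 24.9, 31.1, 32.04 and 34.8 CPM to 52.4, 66.3, 49.5 and 44.4 CPM (log2 fold change 0.79 ± 0.14, edgeR adjusted p = 0.0506).

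Same-numbered samples of these groups deviated together. Over all 15965 genes tested, a block by replicate number called 223 higher and 185 lower in place of 48 and 21. Of the members it called 8 in place of 1, all higher. Beside Pfkl these were Hk2 (blocked log2 fold change 0.78, adjusted p = 0.0243), Tpi1 (1.01, 0.0169), Pgk1 (0.92, 0.0343), Pgam1 (0.95, 0.0168), Eno1 (1.10, 0.00872), Ldha (1.11, 0.0174) and Pcx (0.70, 0.0168), by edgeR. Without the block, other members were Pfkp at 0.32 ± 0.14 (adjusted p = 0.394), Ldhb at 0.01 ± 0.15 (0.982), Pdha1 at 0.03 ± 0.11 (0.947), Cs at −0.03 ± 0.12 (0.950) and Idh2 at −0.08 ± 0.14 (0.868). Among mitochondrial members, Pcx alone was called with the block, with 53.7, 81.6, 63.8 and 78.3 CPM and 100.3, 115, 96.1 and 142 CPM. Within the 3 title codes, the mean of the cytosolic members was higher beside fibroblasts by 0.44, 0.71 and 0.53 on the log2 scale.

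Around the pathway, Slc16a3 rose from 29.8 to 131 CPM (log2 fold change 2.13 ± 0.27, edgeR adjusted p = 0.0151) and the glucose carrier Slc2a1 from 46.7 to 93.8 CPM (log2 fold change 1.00 ± 0.17, edgeR adjusted p = 0.0382), 2 of 10 carriers. Of the 12 kinases and phosphatases, Pdk1 (log2 fold change 1.47 ± 0.17, edgeR adjusted p = 0.0109) and Pfkfb3, which makes the activator of phosphofructokinase (1.07 ± 0.16, 0.0270), rose, and Pdp1, the phosphatase that reactivates pyruvate dehydrogenase, fell (−0.75 ± 0.11, 0.0270). Egln1 (1.06 ± 0.16, 0.0323) and Egln3 (3.18 ± 0.51, 0.0355) rose among 13 regulators. Egln3 was low in both groups (1.03 and 9.21 CPM). Gpd2, the mitochondrial glycerol-3-phosphate dehydrogenase, was the only one of 16 neighbouring genes that rose (0.67 ± 0.12, 0.0478). Of 12 macrophage markers, edgeR called 0, with 2 at an unadjusted p under 0.05 and 0 called by DESeq2.

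**Figure D3:**
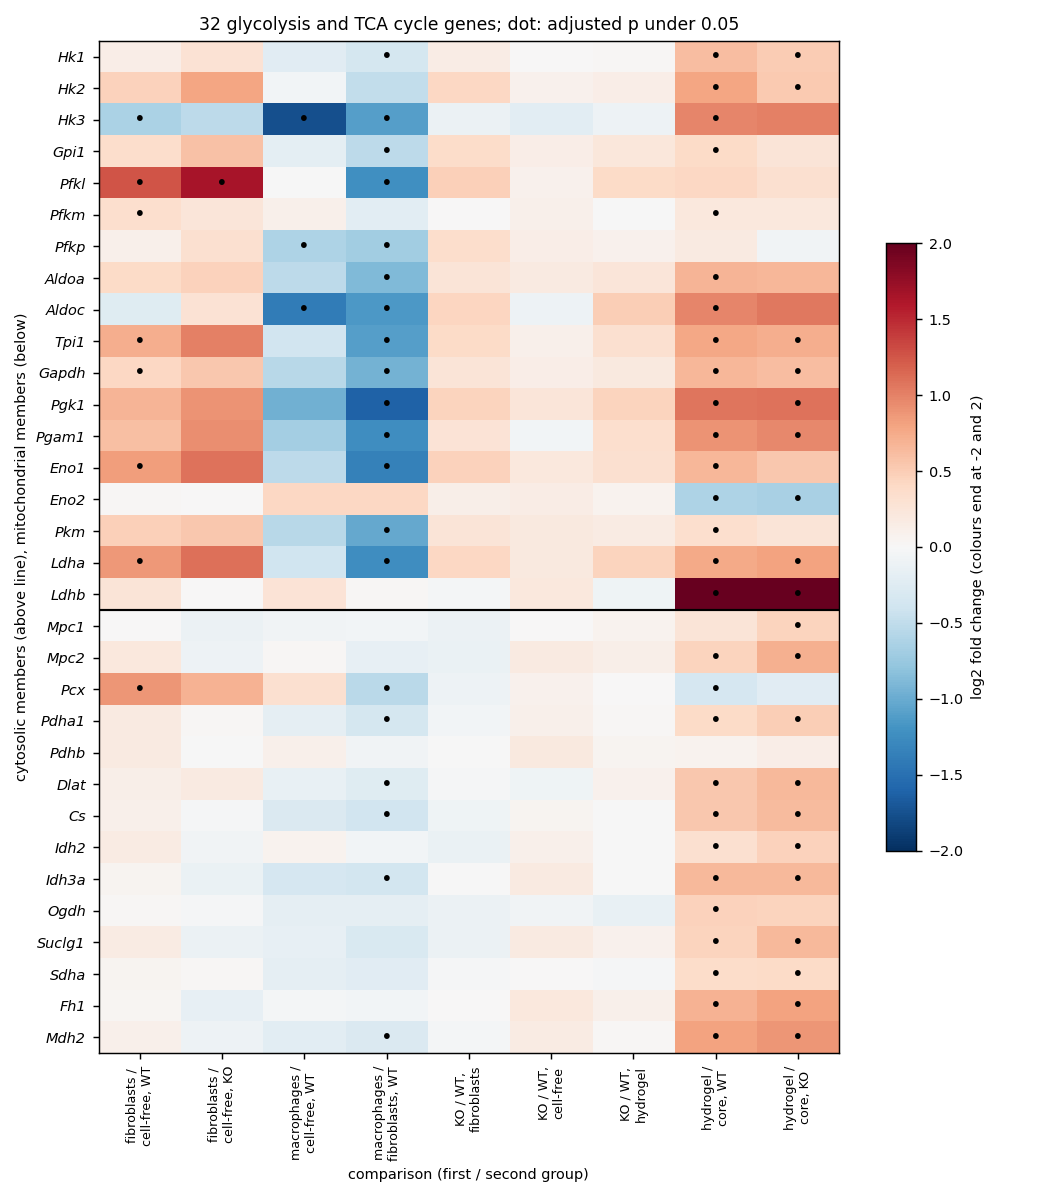
Heat map of the log2 fold change (first group over second, edgeR) of the 32 members, in rows, in 9 comparisons, in columns, with a dot where the adjusted p is under 0.05. The columns of fibroblasts against cell-free and of macrophages against fibroblasts have opposite colours for most cytosolic members, and these comparisons share samples, while the 3 columns of cores labelled KO against WT and of hydrogels around them hold no dot.

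Whether the genotype label of the core changes these transcripts was asked in 3 pairs of groups and in an interaction. In fibroblast assembloids, the estimates were positive for 16 of 18 cytosolic members in cores labelled KO (median log2 fold change 0.31). They were negative for 13 of 14 mitochondrial members, with a median of smaller size (−0.07), against 0.0004 over all genes. No member was called by edgeR or by DESeq2, and edgeR called 0% of all genes higher and 0% lower. At an unadjusted p under 0.05, 6 cytosolic members were higher (Hk1, Gpi1, Pfkp, Aldoc, Eno1 and Ldha), where 4.64% of all genes were higher and 4.23% lower. Pfkp had 104, 111, 103 and 84.1 CPM in WT and 147, 145, 106 and 114 CPM in KO core // fibroblasts (log2 fold change 0.35 ± 0.12, edgeR adjusted p = 0.536). Ldha, with the values above, had 0.41 ± 0.18 (0.558), Hk2 0.41 ± 0.20 (0.568) and Ldhb −0.04 ± 0.17 (0.959). For the mitochondrial enzymes, Pdha1 had −0.06 ± 0.07, Cs −0.08 ± 0.05 and Idh2 −0.13 ± 0.06. Cs was lower in all 4 cores labelled KO (124, 123, 116 and 121 CPM) than in the 4 WT cores (127, 129, 128 and 129 CPM). It did not pass (adjusted p = 0.649, edgeR), and lack of overlap was not counted over all genes. Within the 3 title codes the mean of the cytosolic members differed by 0.31, 0.08 and 0.61 on the log2 scale.

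In cell-free assembloids, cores labelled KO against WT cores had medians of 0.13 for cytosolic and 0.10 for mitochondrial members. By edgeR, 0 members were called and 0 had an unadjusted p under 0.05, DESeq2 called 0, and of all genes 0% were called in each direction (1.18% higher and 0.927% lower at an unadjusted p under 0.05). Log2 fold changes were 0.08 ± 0.15 for Hk2, 0.13 ± 0.14 for Pfkp, 0.19 ± 0.20 for Ldha, 0.22 ± 0.18 for Ldhb, 0.10 ± 0.12 for Pdha1, 0.05 ± 0.13 for Cs and 0.10 ± 0.15 for Idh2, each with an edgeR adjusted p of 1.000. Without KO core // cell-free replicate 1, in which Tpi1 and Idh2 were the highest of the group, the medians were 0.01 and −0.02.

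The interaction asked whether fibroblasts moved WT cores and cores labelled KO differently. The median interaction was 0.21 on the log2 scale for cytosolic and −0.19 for mitochondrial members, with positive estimates, a larger fold change in cores labelled KO, for 15 of 18 and negative ones for 13 of 14. Both edgeR and DESeq2 called 0 members, 0 had an unadjusted p under 0.05, and edgeR called 0% of all genes in each direction (1.38% and 1.62% at an unadjusted p under 0.05). The interaction was 0.39 ± 0.32 for Pfkl, 0.33 ± 0.27 for Hk2, 0.22 ± 0.19 for Pfkp, 0.22 ± 0.29 for Ldha and −0.26 ± 0.24 for Ldhb. It was −0.19 ± 0.19 for Pcx, −0.16 ± 0.13 for Pdha1, −0.14 ± 0.14 for Cs and −0.24 ± 0.17 for Idh2, and the lowest adjusted p was 0.985. A difference between the 2 genotype labels in the response of these enzymes to fibroblasts was therefore not shown, and standard errors of this size do not show its absence.

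Beside macrophages in place of a cell-free hydrogel, WT cores had lower Hk3, Aldoc and Pfkp. No other member was called, and the medians were −0.46 for cytosolic and −0.15 for mitochondrial members, against 0.01 for all genes. Of 16441 genes tested, 1.03% were called higher and 4.65% lower. Hk3 was at 37.3, 52.1, 36.1 and 50.7 CPM beside macrophages, against 146, 137, 139.8 and 173 CPM in WT core // cell-free (log2 fold change −1.75 ± 0.14, edgeR adjusted p = 0.000917). Aldoc, the brain-type aldolase, was at 4.71, 11.5, 5.19 and 8.54 CPM against 21.4, 21.1, 15.8 and 21.6 CPM (log2 fold change −1.40 ± 0.26, edgeR adjusted p = 0.0149). Pfkp, the platelet-type phosphofructokinase, was at 55.9, 65.9, 62.4 and 60.96 CPM against 80.4, 95.3, 87.2 and 117 CPM (log2 fold change −0.62 ± 0.12, edgeR adjusted p = 0.0168). None of the 3 overlapped between groups (exact permutation p = 0.0286 each, the smallest possible), and the share of all genes without overlap was not counted. The call of Aldoc was lost without macrophage replicate 3, and that of Pfkp without macrophage replicate 1 or 3 or cell-free replicate 2 (adjusted p of up to 0.0629, edgeR).

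Same-numbered samples deviated together here as well (residual correlations of 0.14 to 0.29), but only 2 of 4 pairs correlated best with their own number. Over all 16441 genes tested, a block by replicate number called 363 higher and 1087 lower in place of 169 and 764. Of the members it called 10 in place of 3, all lower. The additional ones were Aldoa (blocked log2 fold change −0.54, edgeR adjusted p = 0.0390), Tpi1 (−0.42, 0.0482), Gapdh (−0.56, 0.0191), Pgk1 (−0.98, 0.0408), Pgam1 (−0.68, 0.0125), Eno1 (−0.56, 0.0343) and Idh3a (−0.33, 0.0397). Without macrophage replicate 2, whose mean over the cytosolic members was the closest to the cell-free cores, 10 members were called without a block. Of all genes, 116 were called higher and 555 lower in that fit. Members by value were Ldha at −0.40 ± 0.17 (adjusted p = 0.199), Hk2 at −0.06 ± 0.14 (0.823), Ldhb at 0.27 ± 0.18 (0.404), Pdha1 at −0.18 ± 0.10 (0.303), Cs at −0.30 ± 0.10 (0.123) and Idh2 at 0.08 ± 0.10 (0.678), without a block. With library totals as scale the median of all genes moved to 0.12 and that of cytosolic members to −0.36. The 3 title codes gave differences in the cytosolic mean of −0.53, −0.38 and −0.61.

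Beside macrophages, the carrier Slc2a6 fell from 33.2 to 9.80 CPM (log2 fold change −1.74 ± 0.23, edgeR adjusted p = 0.00366), 1 of 10 carriers. Pfkfb3 rose (0.63 ± 0.14, 0.0280) and Tigar, which lowers fructose 2,6-bisphosphate, fell (−0.53 ± 0.13, 0.0435) among 12 kinases and phosphatases. Of 16 neighbouring genes, the malic enzyme Me2 (−0.63 ± 0.13, 0.0205) and Pgd of the pentose phosphate pathway (−0.63 ± 0.14, 0.0326) fell and the malic enzyme Me3 rose (0.46 ± 0.10, 0.0282). None of 8 other glycolysis enzymes, 11 other TCA subunits and 13 regulators was called by edgeR, with 1, 3 and 1 at an unadjusted p under 0.05 and 0, 0 and 1 called by DESeq2.

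The values of Hk3 are set beside those of 2 macrophage markers, chosen after their values were seen. Itgam, which encodes an integrin of myeloid cells, was at 498, 358, 296 and 476 CPM in WT core // cell-free and at 90.1, 188, 107 and 165 CPM in WT core // macrophages. Csf1r, the receptor of macrophage colony-stimulating factor, did not follow Hk3 there, with 607, 520.3, 431 and 701 CPM in WT core // cell-free and 442, 579, 555 and 998 CPM in WT core // macrophages. Of the 12 macrophage markers, Itgam and Cd14 were called lower beside macrophages than in cell-free cores and none higher, and all 12 were at 1 CPM or more in at least 1 sample of every group. The lowest Hk3 level of all 32 samples, 27.2 CPM, was in KO hydrogel replicate 5, where Itgam was at 57.5 CPM. The highest, 372 CPM, was in KO hydrogel replicate 1, where Itgam was at 1021 CPM. The part of myeloid cells in the Hk3 values was not tested.

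**Figure D4:**
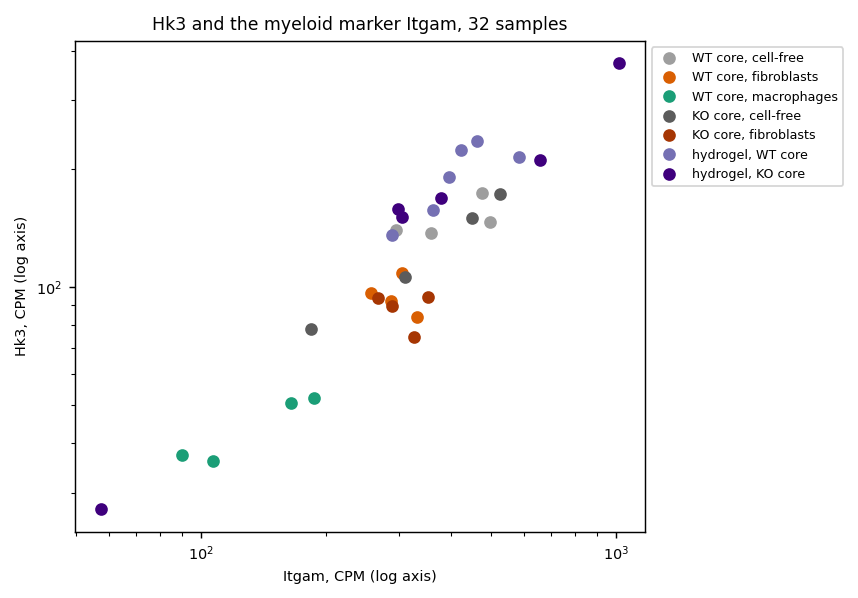
Hk3 against Itgam in CPM, both on log axes, 1 point per sample, coloured by group. Points run from KO hydrogel replicate 5 at the lower left through WT core // macrophages (36.1 to 52.1 CPM of Hk3) to KO hydrogel replicate 1 at the upper right.

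Cores beside macrophages were then compared with cores beside fibroblasts. Of the 18 cytosolic members, 14 were lower beside macrophages and none was higher, and of the 14 mitochondrial members 6 were lower. Over all 16370 genes tested, 8.85% were called higher and 10.7% lower. The median was −0.98 for cytosolic members, −0.23 for mitochondrial members and 0.01 for all genes. These cores are the same as in the comparisons with cell-free hydrogels above, so that the values are not independent of those.

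Pgk1 had the largest difference, with 19.4, 43.8, 30.6 and 24.2 CPM beside macrophages and 100.2, 108, 95.97 and 62.7 CPM beside fibroblasts (log2 fold change −1.62 ± 0.24, edgeR adjusted p = 0.00363). Hk3, with 37.3, 52.1, 36.1 and 50.7 CPM and 83.9, 108, 96.7 and 92.2 CPM, had the lowest p (log2 fold change −1.10 ± 0.14, edgeR adjusted p = 0.00188). Ldha was at 144, 268, 177 and 178 CPM beside macrophages (log2 fold change −1.24 ± 0.19, edgeR adjusted p = 0.00403), below all its values beside fibroblasts. Eno1 was at 77.9, 152, 96.5 and 99.6 CPM (log2 fold change −1.34 ± 0.20, edgeR adjusted p = 0.00344), Gapdh at 132, 214, 160.5 and 164 CPM (log2 fold change −0.94 ± 0.14, edgeR adjusted p = 0.00323) and Pfkp at 55.9, 65.9, 62.4 and 60.96 CPM (log2 fold change −0.70 ± 0.09, edgeR adjusted p = 0.00244). These 6 members, named for their lowest p, did not overlap between groups, and the share of all genes without overlap was not counted. All 6 kept their call with any 1 library left out. The other called cytosolic members, Hk1, Gpi1, Pfkl, Aldoa, Aldoc, Tpi1, Pgam1 and Pkm, had log2 fold changes of −1.25 to −0.34. Not called were Hk2 (−0.50 ± 0.19, adjusted p = 0.0831), Pfkm (−0.22 ± 0.07, 0.0622), Eno2 (0.41 ± 0.20, 0.148) and Ldhb (0.02 ± 0.16, 0.924).

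Fold changes of the called mitochondrial members were mostly smaller in size, with log2 values of −0.54 to −0.24. They overlapped with the smallest of the called cytosolic members, Hk1 (−0.34) and Gpi1 (−0.52). Cs, which starts the cycle, was at 85.8, 106, 95.7 and 103 CPM beside macrophages and at 127, 129, 128 and 129 CPM beside fibroblasts (log2 fold change −0.38 ± 0.08, edgeR adjusted p = 0.0117). Idh3a was at 22.7, 25.98, 24.6 and 25.5 CPM and 32.9, 32.8, 33.7 and 28.8 CPM (log2 fold change −0.36 ± 0.08, edgeR adjusted p = 0.0152), and Pdha1 at 97.3, 113, 114 and 124 CPM and 144, 136, 152 and 146 CPM (log2 fold change −0.35 ± 0.08, edgeR adjusted p = 0.0221). Mdh2 (−0.29 ± 0.07, 0.0239), Dlat (−0.24 ± 0.06, 0.0310) and Pcx (−0.54 ± 0.15, 0.0311) were also lower, and Idh2 was not called (−0.06 ± 0.08, 0.632). The 6 calls depended on scaling, since library totals moved the median of all genes to 0.20, gave 3743 genes higher and 745 lower in place of 1449 and 1751, and left 13 cytosolic calls and 0 mitochondrial calls (edgeR). The median was then −0.80 for cytosolic and −0.04 for mitochondrial members, both still below that of all genes. Suclg1 was called with a block by replicate number (adjusted p = 0.0268) and not without it (0.0514).

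Around the pathway, called genes lay in both directions beside macrophages. Slc16a3 (log2 fold change −1.90 ± 0.38, edgeR adjusted p = 0.0109), Slc2a1 (−1.33 ± 0.22, 0.00545), Slc2a6 (−1.43 ± 0.18, 0.00204) and Bsg, the chaperone of lactate carriers (−0.63 ± 0.17, 0.0303), were lower, 4 of 10 carriers. Among 12 kinases and phosphatases, Pdk1 was lower (−1.48 ± 0.21, 0.00280), as were Pdp2, Tigar and Pdk3, and Pdk4 was higher (1.57 ± 0.28, 0.00750). Of 13 regulators, Vhl (−0.51 ± 0.10, 0.00893), Egln3 (−1.66 ± 0.41, 0.0232), Egln1 and Hif1a were lower. Epas1, which encodes the HIF-2 subunit (1.10 ± 0.21, 0.0104), and Ppargc1a, a coactivator of mitochondrial genes (1.39 ± 0.28, 0.0113), were higher. Of the tendon fibroblast markers Scx and Thy1 were lower, of the macrophage markers Csf1r was higher and Cd14 and Itgam were lower, and their part in these differences was not tested.

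Hydrogel and core of the same kind of assembloid were compared to ask how the extrinsic compartment differs from the core. In WT assembloids, 15 cytosolic members were higher in the hydrogel and 1, Eno2, was lower, and 11 mitochondrial members were higher and 1, Pcx, was lower. Most of the transcriptome differed too, with 33.9% of 16037 genes called higher and 35.4% lower. The medians were 0.67 for cytosolic members, 0.45 for mitochondrial members and −0.0008 for all genes.

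Ldhb stood apart, with 4.08, 6.23, 5.80 and 5.95 CPM in the 4 WT cores and 12 to 37.3 CPM (median 21.4 CPM) in the 6 WT hydrogels. The lowest hydrogel was above the highest core (log2 fold change 2.05 ± 0.29, edgeR adjusted p = 6.53e-05, exact permutation p = 0.00952, the smallest possible for 6 against 4). Pgk1 in hydrogels had 165, 182 and 249.8 CPM as its lowest, median and highest value (log2 fold change 1.07 ± 0.16, edgeR adjusted p = 0.000104). Ldha had 686, 779.5 and 945 CPM (log2 fold change 0.76 ± 0.13, edgeR adjusted p = 0.000237), and Gapdh 457, 526 and 673 CPM (log2 fold change 0.67 ± 0.10, edgeR adjusted p = 0.000140). Both exceeded all WT cores. Hk1, the housekeeping hexokinase, went from 109.9, 109.9, 101 and 91.4 CPM in cores to 147 to 191 CPM (median 160.1 CPM) in hydrogels (log2 fold change 0.62 ± 0.08, edgeR adjusted p = 2.36e-05), and Hk3 reached 136 to 236 CPM (median 203 CPM) (log2 fold change 0.97 ± 0.14, edgeR adjusted p = 9.48e-05). Macrophage markers were higher along with Hk3, 9 of 12 called, and their part in it was not tested. Of 10 tendon fibroblast markers, 8 were lower in the WT hydrogel (median log2 fold change over the list −1.09) and none was higher, and their part in the differences between compartments was not tested. Hk2 (0.79 ± 0.17, 0.00128) was called higher and Pfkp (0.19 ± 0.10, 0.113) was not. Pfkl just missed the threshold (0.41 ± 0.17, 0.0501), and passed it with the 4 assembloids that had both compartments as blocks (0.0164). Eno2 was at 15.3, 19.1, 17.3 and 14.5 CPM in cores and at 7.03 to 14.8 CPM (median 12.2 CPM) in hydrogels (log2 fold change −0.61 ± 0.20, edgeR adjusted p = 0.0172).

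Of the 14 mitochondrial members, 11 rose in the WT hydrogel, 1 fell and 2 did not pass. Mdh2, which closes the cycle, was at 60.2, 59.8, 64.6 and 60.3 CPM in cores and at 97.6 to 134 CPM (median 104 CPM) in hydrogels, without overlap (log2 fold change 0.81 ± 0.09, edgeR adjusted p = 8.38e-06). Suclg1 was at 32.2, 33.8, 35.9 and 35.1 CPM and 45.9 to 52.6 CPM (median 47.5 CPM) (log2 fold change 0.45 ± 0.05, edgeR adjusted p = 1.99e-05), and Fh1 at 31.2, 29.6, 34.8 and 27.1 CPM and 42.2 to 60.9 CPM (median 50.3 CPM) (log2 fold change 0.70 ± 0.09, edgeR adjusted p = 4.64e-05). Dlat (0.53 ± 0.07, 2.70e-05), Idh3a (0.64 ± 0.10, 0.000107) and Mpc2 (0.45 ± 0.07, 0.000128) were among the 6 with the lowest p. Cs (0.54 ± 0.08), Pdha1 (0.39 ± 0.06) and Idh2 (0.32 ± 0.08) were called as well, while Mpc1 (0.25 ± 0.12, 0.0725) and Pdhb (0.06 ± 0.07, 0.422) were not. With the 4 assembloids as blocks, Mpc1 passed (0.000291). Pcx, which was higher in WT cores beside fibroblasts than in cell-free cores, was lower in hydrogels, at 84.1 to 109.9 CPM (median 99.1 CPM) against 130.4, 106, 120.1 and 130.5 CPM in cores (log2 fold change −0.34 ± 0.09, edgeR adjusted p = 0.00400).

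Assembloids with cores labelled KO share no sample with the WT assembloids. There, 8 cytosolic members were higher in the hydrogel and 1 (Eno2) was lower, and 11 mitochondrial members were higher, where 25.5% of 16084 genes were called higher and 30.2% lower. The medians were 0.58 and 0.56, against −0.0015 for all genes. Ldhb was at 4.40, 4.95, 5.92 and 6.25 CPM in cores and at 11.4 to 33.4 CPM (median 23.4 CPM) in hydrogels (log2 fold change 2.02 ± 0.33, edgeR adjusted p = 0.000469). Pgk1 went from 154, 134, 76.6 and 137 CPM to 166 to 398 CPM (median 283 CPM) (log2 fold change 1.08 ± 0.28, edgeR adjusted p = 0.00753), and Ldha to 751 to 1464 CPM (median 1131 CPM) (log2 fold change 0.81 ± 0.23, edgeR adjusted p = 0.0122). For these 3 the hydrogels did not overlap with the cores, and the share of all genes without overlap was not counted. Pgam1 (0.96 ± 0.27, 0.0103), Hk1 (0.52 ± 0.15, 0.0121), Tpi1 (0.73 ± 0.23, 0.0217), Hk2 (0.52 ± 0.17, 0.0232) and Gapdh were also higher, and Pfkp was not called (−0.07 ± 0.21, 0.804). The call of Eno2 (−0.65 ± 0.24, 0.0401) was lost in 8 of 10 fits with 1 library left out.

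Among mitochondrial members, Suclg1 was at 31.2, 31.6, 31.4 and 32.96 CPM in cores labelled KO and at 48.6 to 54.1 CPM (median 50.6 CPM) in their hydrogels (log2 fold change 0.65 ± 0.06, edgeR adjusted p = 2.13e-05). Mdh2 went from 59.9, 61.3, 56.3 and 61.3 CPM to 81.6 to 137 CPM (median 111 CPM) (log2 fold change 0.89 ± 0.13, edgeR adjusted p = 0.000287), and Mpc2 from 19.97, 17.01, 14.6 and 20.3 CPM to 26.9 to 32.3 CPM (median 30.2 CPM) (log2 fold change 0.70 ± 0.10, edgeR adjusted p = 0.000265). None of these overlapped. Dlat (0.65 ± 0.10, 0.000307), Pdha1 (0.49 ± 0.08, 0.000384) and Idh3a (0.65 ± 0.12, 0.00108) followed by p, and Cs (0.64 ± 0.19, 0.0154) and Idh2 (0.46 ± 0.09, 0.00118) were called. Pcx was not (−0.23 ± 0.19, 0.345).

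KO hydrogel replicate 5 was the lowest of its group in the mean of both classes, with 0.51 for cytosolic members where the other 5 had 1.03 to 1.60 above WT core // cell-free on the log2 scale. Without it 26 members were called in place of 20. Of all genes, 5044 were then called higher and 5057 lower, in place of 4096 and 4854. With the 4 assembloids as blocks, which leaves out 2 hydrogels, 5389 of 15833 genes were called higher and 5321 lower. Of the members 28 were called, and the 8 gained were Hk3 (blocked log2 fold change 0.94, edgeR adjusted p = 0.000372), Gpi1 (0.28, 0.0383), Pfkl (0.35, 0.0124), Pfkm (0.29, 0.0116), Aldoa (0.64, 0.00260), Aldoc (0.82, 0.00455), Eno1 (0.56, 0.000696) and Ogdh (0.51, 0.000640). Of 12 macrophage markers 0 were called by edgeR between cores labelled KO and their hydrogels, with 0 at an unadjusted p under 0.05 and 0 called by DESeq2, and the summed level in hydrogels spanned 2153 to 31717 CPM, with replicate 5 the lowest. Of 10 tendon fibroblast markers, 5 were lower in the KO hydrogels (median log2 fold change −0.66) and none was higher. Sox10, a transcription factor of Schwann cells, was under 1.1 CPM in every core and at 7.12 to 19.7 CPM in hydrogels, and the part of these markers in the differences between compartments was not tested.

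**Figure D5:**
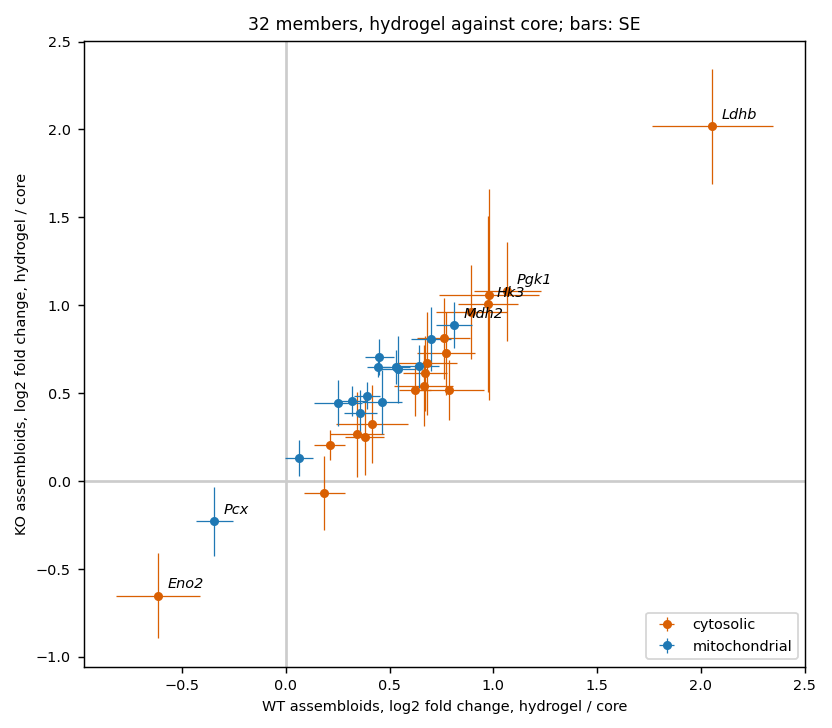
Log2 fold change (hydrogel over core, edgeR, bars for the standard error) of the 32 members in WT assembloids (x axis) and in assembloids with a core labelled KO (y axis), coloured by class. Ldhb lies at 2.05 and 2.02, Eno2 and Pcx lie below 0 on both axes, and the standard errors are wider on the y axis.

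Around the pathway, 10 of 11 other subunits of pyruvate dehydrogenase and the TCA cycle were higher in WT hydrogels and 9 of 11 in KO hydrogels, and none was lower, where 33.9% of all genes were called higher and 35.4% lower in WT and 25.5% and 30.2% in KO assembloids. Sdhd, an anchor subunit of succinate dehydrogenase, had 0.82 ± 0.06 (7.10e-07) and 1.03 ± 0.13 (0.000115, edgeR). Sdhc had 0.76 ± 0.09 (1.26e-05) and 0.95 ± 0.14 (0.000231). The other glycolysis enzymes had 3 higher and 4 lower of 9 in WT assembloids and 3 higher and 3 lower of 9 in the others. Gapdhs, the sperm-type isoform, was lower (−1.19 ± 0.13 and −1.39 ± 0.17) and Pgam2, the muscle-type mutase, was higher (1.17 ± 0.19 and 1.44 ± 0.29). Of 10 carriers, 4 were higher and 2 lower in WT and 1 was higher and 1 lower in KO assembloids, both lists being near or below the shares over all genes, with Bsg higher (0.47 ± 0.12 and 0.57 ± 0.21) and Slc2a12 lower (−0.54 ± 0.10 and −0.59 ± 0.14). Of 12 kinases and phosphatases, 4 were higher and 3 lower in WT and 2 higher and 3 lower in KO assembloids. Of 13 regulators, 3 were higher and 2 lower in WT and 4 higher and 3 lower in KO assembloids. These lists too were near or below the shares over all genes. Among kinases and phosphatases Pdk3 was higher (0.74 ± 0.07 and 0.81 ± 0.10) and Pfkfb2 was lower (−0.59 ± 0.07 and −0.55 ± 0.07). Among regulators, Esrra, a nuclear receptor that acts on mitochondrial genes, was higher (0.78 ± 0.08 and 0.81 ± 0.18) and Arnt, the partner of HIF subunits, was lower (−0.45 ± 0.06 and −0.59 ± 0.06).

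Between hydrogels around cores labelled KO and around WT cores, no member was called by edgeR or by DESeq2, and of 15227 genes 0% were called higher and 0% lower. At an unadjusted p under 0.05, Ldha, Pgk1 and Pfkl were higher around cores labelled KO, where 1.79% of all genes were higher and 0.867% lower. Ldha ranged over 751 to 1464 CPM (median 1131 CPM) there and over 686 to 945 CPM (median 779.5 CPM) around WT cores (log2 fold change 0.45 ± 0.17, edgeR adjusted p = 1.000, exact permutation p = 0.0455). The ranges overlapped for this and all other members. Pgk1 had 0.45 ± 0.20 and Pfkl 0.38 ± 0.17, Hk2 0.13 ± 0.13, Pfkp 0.08 ± 0.17 and Ldhb −0.08 ± 0.32. Pdha1 had 0.02 ± 0.06, Cs −0.0021 ± 0.16 and Idh2 −0.01 ± 0.08. The median of cytosolic members was 0.21, and it was 0.31 without KO hydrogel replicate 5 and 0.09 without KO hydrogel replicate 1.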

How the data were processed

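Total RNA of core explant pools and hydrogel pools was depleted of ribosomal RNA, sequenced from stranded libraries and pseudoaligned with kallisto (0.46.1), and the submitters' processing notes name the build GRCm39. Which annotation release they used was not given in the sources at hand. The study kept pools with a RIN of at least 2, so that RNA quality may have been low in some of them. The authors deposited estimated counts per gene as whole numbers without normalization. All groups were taken from the sample labels.

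From these, genes were filtered with filterByExpr, scaled by TMM within each comparison, and tested in edgeR (4.0.16, R 4.3.3) by quasi-likelihood, without a block and with Benjamini-Hochberg adjustment over all genes tested. Standard errors follow from the fold change and the F statistic (size of the log2 value over the root of F). Levels are CPM with TMM factors of all 32 samples, and exact permutation tests (two-sided, scipy 1.17.1) used log2 CPM with a prior count of 2. Lack of overlap between groups was not counted over all genes in any comparison. The pipeline was tested on simulated counts. Totals of 20.4 to 59.9 M counts mean that 1 CPM stands for 20.4 counts or more. Reads shared with near-identical copies can be split between genes by kallisto, and of the 2 gene IDs with the symbol Aldoa the one with more counts was used. Exon lengths and names came from GENCODE M21 on GRCm38, which served for no coordinates of the deposited data.

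The members and gene lists were chosen with earlier results of these data known. Named are all members with their levels, in each comparison the called members (at most 6 per class in full, by lowest p) and always Hk2, Pfkp, Ldha, Ldhb, Pdha1, Cs and Idh2, up to 4 called genes per pathway list, and Il6. Alternatives were DESeq2 (1.42.0), RLE factors, library totals, no filter, a minimum of 10 counts in all samples, a fold threshold, blocks by replicate number or by code of the titles (150, 152 or 154, unexplained in the labels), 1 fit of all 5 core groups, and leaving out each sample. Same-numbered samples counted as pairs where residuals of all same-numbered samples correlated above 0.1, which held for KO cores with and without fibroblasts (0.14 to 0.33), macrophages against cell-free (0.14 to 0.29) and against fibroblasts (0.13 to 0.18), and hydrogels (0.17 to 0.54). Hydrogel and core were paired by the codes of the titles, and per the study's methods the cells that left a core came from the same mouse (0.20 to 0.25 in WT and 0.18 to 0.36 in KO assembloids). Same-numbered samples correlated best with their own number in 2 of 4 pairs for macrophages against cell-free and 3 of 6 for hydrogels. In the other paired comparisons it was 4 of 4. Each core pool came from 1 mouse. The seeded fibroblasts were mixed from several mice, so that p-values for hydrogels measure the spread between these samples only.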

Additional observations from a re-analysis of the deposited data

Results flagged for a closer look

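Of 238 groups of sample values examined (each member and each class mean in each group), 14 had a highest or lowest sample far from the rest by Dixon's ratio at the 95% level. Chance flags about 1 in 20 groups.

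Among cytosolic members these were Gpi1 in WT hydrogel replicate 1 (394 CPM, nearest 316 CPM), Aldoa in WT core // fibroblasts replicate 4 (715 CPM, nearest 916 CPM) and Aldoc in WT core // cell-free replicate 3 (15.8 CPM, nearest 21.1 CPM). Tpi1 was high in KO core // cell-free replicate 1 (215 CPM, nearest 152 CPM), where Ldhb was low in replicate 2 (4.97 CPM, nearest 5.39 CPM). Eno2 was high in KO core // fibroblasts replicate 3 (21.1 CPM, nearest 17.1 CPM).

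Among mitochondrial members, Idh2 was high in KO core // cell-free replicate 1 (86.7 CPM, nearest 60.9 CPM), the same library as for Tpi1. Cs was high in WT core // cell-free replicate 4 (139 CPM, nearest 117 CPM), and so was the mean over all mitochondrial members there (0.14 on the log2 scale, nearest −0.04). Mpc1 was high in WT core // macrophages replicate 4 (20.8 CPM, nearest 16.7 CPM) and Mpc2 was low in replicate 1 (14.9 CPM, nearest 17.8 CPM). Mdh2 was high in WT core // fibroblasts replicate 3 (64.6 CPM, nearest 60.3 CPM), Ogdh was low in KO core // fibroblasts replicate 4 (141 CPM, nearest 166 CPM), and Dlat was low in KO hydrogel replicate 5 (52.9 CPM, nearest 68.2 CPM), which was also the lowest of its group in both class means.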

How the results depend on the processing

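No result turned its direction while called under the alternatives run. Over single members and settings, 94 values lost and 134 gained a call. For fibroblasts against cell-free in WT cores, 8 members were called, 13 by DESeq2 and 4 with all 5 core groups in 1 fit, and 2 to 14 with 1 library left out. For KO cores, 1 was called, 8 by DESeq2, with the replicate block and with the title code block, 7 in 1 fit of all core groups, 3 without a filter, 2 with RLE factors or library totals, 11 at an unadjusted p under 0.05 and a fold beyond 0.5 (log2), and 0 to 4 with 1 library left out. These were 0 without cell-free replicate 3 or 4 or fibroblast replicate 4, 2 without cell-free replicate 1, 3 without fibroblast replicate 3 and 4 without cell-free replicate 2. For macrophages against cell-free, 3 were called, 9 by DESeq2, with the title code block and by the unadjusted threshold, 5 with at least 10 counts in every sample, 10 with the replicate block, and 1 to 10 with 1 library left out (1 without macrophage replicate 3). For macrophages against fibroblasts, 20 were called and 13 with library totals. In WT assembloids, hydrogel against core, 28 were called, and 18 with a log2 fold change beyond 0.5 at either p threshold, a stricter criterion by construction. The median of mitochondrial members moved with library totals to 0.00913 for fibroblasts against cell-free in WT cores and to −0.0441 for macrophages against fibroblasts. Beyond these, the cause of a change between settings was not tested.

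Over all genes, DESeq2 called 942 and 707 (higher and lower) for fibroblasts against cell-free in WT cores in place of 398 and 297, 320 and 242 in KO cores in place of 48 and 21, and 525 and 1194 for macrophages against cell-free in place of 169 and 764. Between genotype labels it called 17 and 28 beside fibroblasts, 8 and 6 in cell-free cores and 1 and 0 in hydrogels, where edgeR called 0. With the replicate block, edgeR called 223 and 185 for fibroblasts in KO cores and 363 and 1087 for macrophages against cell-free. With 1 library left out, fibroblasts against cell-free in WT cores gave 41 and 9 (without fibroblast replicate 1) to 952 and 548 (without cell-free replicate 4). The replicate numbers of WT cores with and without fibroblasts, and of cores of both labels, share only a number (residual correlations down to −0.01 and −0.19), and 2 of 4 pairs correlated best with their own number in the first case. There a replicate block called 7 members in place of 8, without Pfkm (adjusted p = 0.0518, edgeR), and 424 genes higher and 349 lower. Between labels, the block called 0 members, as without it. In the paired comparisons it changed no call other than those given in the report. The calls that held with any 1 library left out were 2 of 8 and 0 of 1 for fibroblasts against cell-free in WT and KO cores, 1 of 3 and 14 of 20 for macrophages against cell-free and against fibroblasts, and 25 of 28 and 15 of 20 for hydrogel against core. The least abundant member in cores was Ldhb, at 3.40 CPM or more.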

Other observations

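Enzymes that link the TCA cycle to other pathways were compared between the compartments. Of 16 genes of neighbouring metabolism tested, 9 were higher and 4 lower in WT hydrogels than in WT cores, and 8 were higher and 4 lower in KO hydrogels than in cores labelled KO. Over all genes, 33.9% were higher and 35.4% lower in WT and 25.5% and 30.2% in KO assembloids. Of the mitochondrial malic enzymes, which turn malate into pyruvate, Me2 was higher, from a mean of 17.3 to 36.9 CPM in WT assembloids (log2 fold change 1.05 ± 0.08, edgeR adjusted p = 1.09e-06), and Me3 was lower, from 20.1 to 2.69 CPM (−2.94 ± 0.25, 1.87e-06). In assembloids with cores labelled KO, Me2 had a log2 fold change of 0.96 ± 0.12 (edgeR adjusted p = 9.87e-05) and Me3 of −2.62 ± 0.56 (0.00237). Per sample, Me3 was at 19.8, 14.6, 21.0 and 25.1 CPM in WT cores and at 1.45 to 3.73 CPM (median 2.86 CPM) in WT hydrogels, without overlap.

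Got1, the cytosolic aspartate aminotransferase, was higher in hydrogels of both kinds (WT 0.69 ± 0.07, 4.05e-06, and KO 0.73 ± 0.16, 0.00253), and so was Mdh1, the cytosolic malate dehydrogenase that works with it in the malate-aspartate shuttle (WT 0.80 ± 0.09, 1.04e-05, and KO 1.02 ± 0.17, 0.000628). Gpd2, of the glycerol phosphate shuttle, was lower in both (−0.51 ± 0.04, 2.30e-06 and −0.50 ± 0.09, 0.00111). Beside macrophages as against fibroblasts, Mdh1 (−0.53 ± 0.11, 0.0116), Gpd2 (−0.51 ± 0.10, 0.00885) and Me2 (−0.45 ± 0.09, 0.00901) were lower in WT cores and Me3 was higher (0.76 ± 0.15, 0.0101).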
